A study of Mus musculus with 7 samples.

Results

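The genes described here are the enzymes that write and erase methyl marks on histones and DNA, together with the histone deacetylases and sirtuins, which remove acyl marks. They were taken by name: every protein-coding gene outside chromosomes X and Y whose symbol is Kdm, Kmt, Setd, Hdac, Sirt, Dnmt or Tet followed by a digit. This gave 52 of the 48440 genes in the files. Of these, 18 were counted as writers by name (6 Kmt, 8 Setd and 4 Dnmt) and 34 as erasers (15 Kdm, 3 Tet, 9 Hdac and 7 Sirt). The names do not cover the enzymes of other families, such as Ezh2 or the acetyltransferases, which are described further on. RNA was sequenced from CD11b+ migratory dendritic cells (DCs), cells that carry inhaled antigen from the lung to the draining lymph node. They were sorted from the mediastinal lymph node (mLN) of B6 mice as CD11c+ MHCII-high CD11b+ cells negative for CD103, B220 and CD64. There were 4 libraries from infant mice of 2 to 3 weeks, set against 3 libraries from adult mice of 7 weeks. All mice of both groups had received house dust mite allergen (HDM) with LPS, a bacterial product that activates DCs, through the nose 24 hours before, so the libraries hold no unsensitized state.

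Histone methyltransferases of the SET type place methyl groups on lysines, where methylation of H3K4 marks active promoters and enhancers, H3K36 transcribed gene bodies, and H3K9 and H3K27 silent chromatin. Demethylases of the Kdm family remove them, either with FAD (Kdm1a, Kdm1b) or with iron and 2-oxoglutarate (the JmjC proteins). Dnmt enzymes methylate cytosine in DNA and Tet enzymes oxidize the methyl group as a step to its removal. Deacetylases of the Hdac family depend on zinc and sirtuins on NAD; both take acyl groups off lysines, many of them outside the nucleus. In macrophages and DCs several of these enzymes, Kdm6b and Hdac3 among them, are known to shape the response to LPS.

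The infant libraries held 18022302 to 20377361 exon reads and the adult libraries 20064331 to 22316484. Ccr7, the receptor that brings DCs to the node, was at 4599 to 5218 CPM (read counts scaled to library size with TMM factors) in infants and 5518 to 6392 CPM in adults. Itgae, which encodes CD103, was at 0.586 to 1.26 CPM in infants and 1.39 to 3.24 CPM in adults, while Fcgr1, which encodes CD64, was at 8.63 to 31.6 CPM in infants and 9.74 to 23.2 CPM in adults. Infant 2 stood apart from the other libraries on the first principal component, at 65.7 against -22.3 to 8.59. Whether each library is a different animal is not stated in the labels, so the p-values here are against a spread that may be partly technical. Kdm5d, on chromosome Y, had 205, 0 and 310 exon reads in adults 1 to 3, so the adult libraries were not all made from the same RNA. In bulk RNA, fewer cells of a type and less RNA per cell cannot be told apart.

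No member passed the test. In infants against adults, 0 of the 50 members measured well enough to test had an adjusted p under 0.05 by edgeR, 0 by DESeq2 and 0 by limma-voom, where edgeR called 0.0163% of all 12261 tested genes (0.00816% in each direction), DESeq2 1.44% of the 12582 it tested (0.525% higher and 0.914% lower in infants) and limma-voom 0.0245% (0.00816% higher and 0.0163% lower). At an unadjusted p under 0.05 there were 8 members (16% of 50), beside 13.3% of all tested genes. Of the 50, 2 were higher in infants at such a p, beside 6.53% of all tested genes, and 6 lower, beside 6.73%. The libraries of the groups did not overlap for 8 members (16%), beside 15.5%. Of these 8, 4 were higher in infants, beside 7.97% of all genes, and 4 lower, beside 7.58%. These shares lay near the background, apart from the split by direction at an unadjusted p. There the lower share was above that of all tested genes and the higher share below it. The members' smallest adjusted p was 0.304 by edgeR and 0.112 by DESeq2. Their fold changes ran from -0.81 to 0.98 on the log2 scale, where a positive value is higher in infants, with a median of -0.082 against 0.00161 for all tested genes.

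Set against each other, writers had the lower median. The 18 writers had a median log2 fold change of -0.14, with 14 below 0 and 4 above. The 32 tested erasers had a median of 0.028, with 15 below 0 and 17 above, but its families differed. The 16 tested methylation erasers (Kdm and Tet) had a median of -0.28, with 11 below 0, and the 16 deacetylases (Hdac and Sirt) one of 0.16, with 12 above 0. Restricted to enzymes with an agreed nuclear mark as substrate, the medians were -0.19 for 12 writers and -0.14 for 25 erasers. All 6 members with an unadjusted p under 0.05 and a lower level in infants were Kdm demethylases. They were 6 of the 14 tested Kdm genes (42.9%) and 6 of all 50 tested members, beside 6.73% of all tested genes with such a p and direction. The 2 on the higher side, Sirt3 and Hdac11, were deacetylases, 2 of 16, beside 6.53%. These groups were not tested as sets. The members were chosen with earlier results known, and none of the 8 passed the adjusted test.

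**Figure D1:**
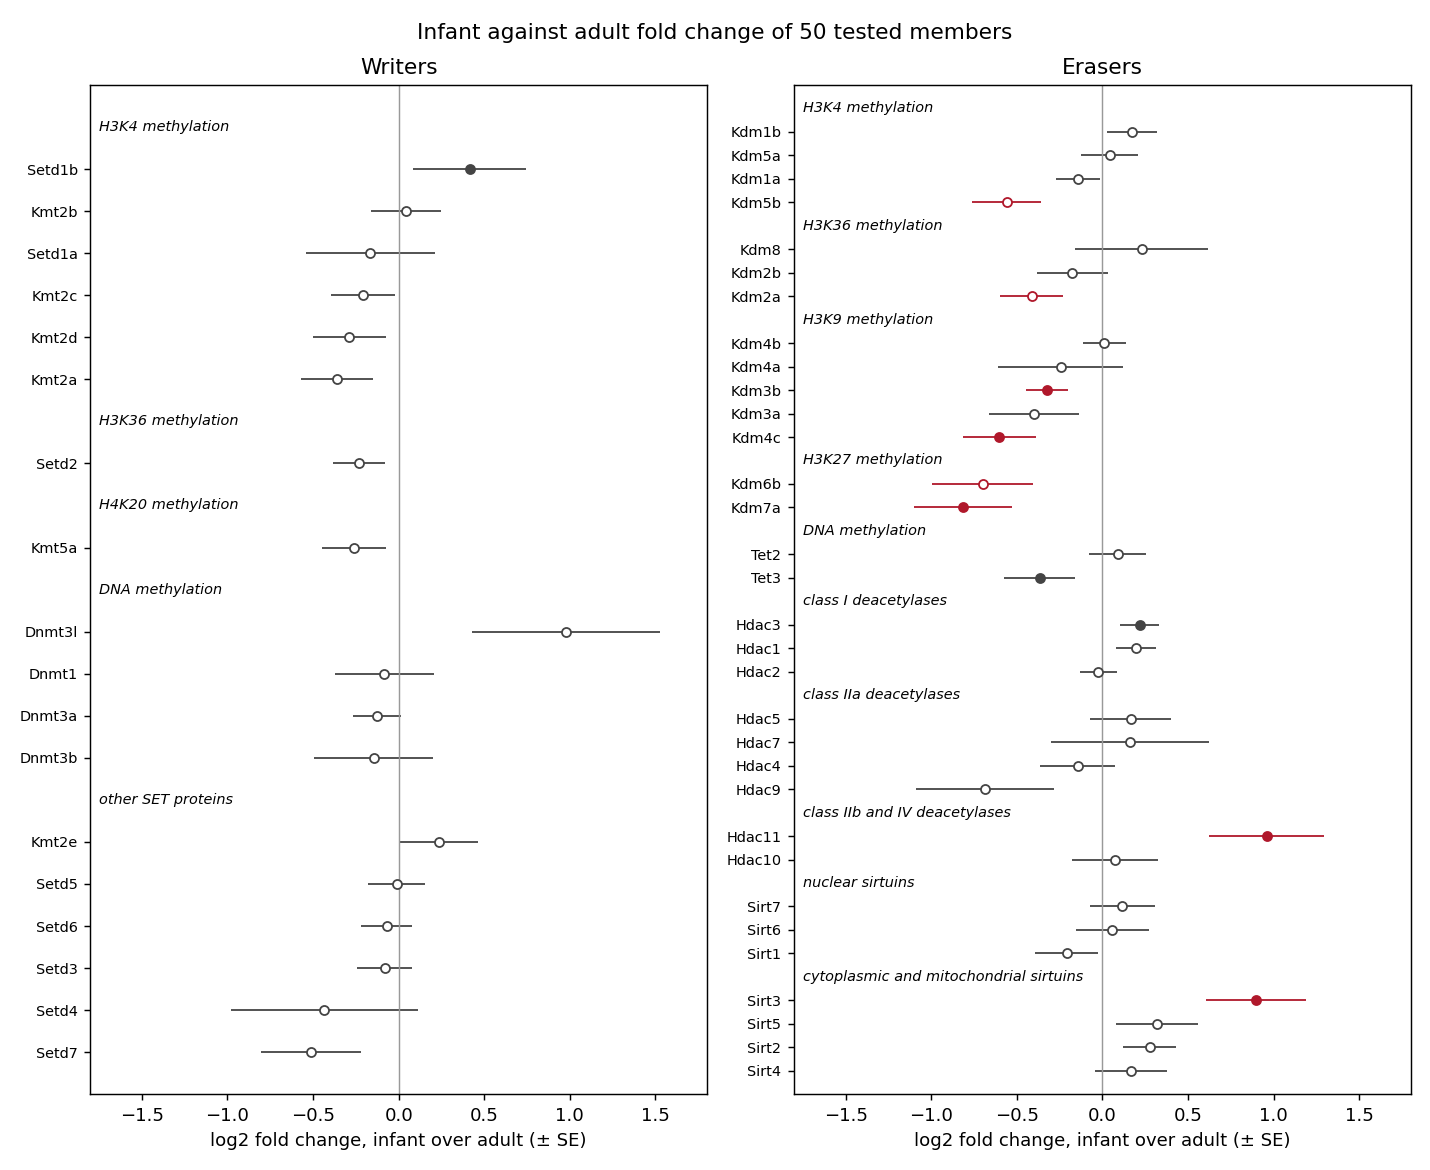
Log2 fold change (infant over adult, ± SE) of the 50 tested members, writers on the left and erasers on the right, grouped by the mark they act on. Red points have an unadjusted p under 0.05 and filled points have groups that do not overlap, and the red points are 6 Kdm genes below 0 and Sirt3 and Hdac11 above it, and none passed the adjusted test.

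Promoters of the members are rich in CpG, the dinucleotide that Dnmt and Tet enzymes act on and that CXXC proteins such as Kdm2a bind when it is not methylated. RefSeq promoters of build GRCm38.p6, 300 bases each and mostly upstream of a start, were at hand for 41 of the 52 members. For each of these members 1 promoter was counted, that nearest to the gene's start. They held a median of 22 CpG and 61.7% GC, beside 7 CpG and 52.7% GC over all 32851 promoters of that table. This background can hold several promoters of a gene and was not limited to tested genes, for which the shares are not given. The letters of the GC box, GGGCGG on either strand, were found in 28 of 41 (68.3%), beside 35.7% of all, and those of the TATA box, TATAAA, in 1 of 41 (2.44%), beside 13.6%. CCAAT was found in 15 (36.6%), beside 37.4%, the E-box CACGTG in 2, beside 7.15%, and the AP-1 letters TGANTCA in 1, beside 7.81%. Shown are the promoters of the 4 members with the smallest p among those whose groups did not overlap and whose promoter was at hand, Kdm7a and Kdm4c, lower in infants, and Sirt3 and Hdac11, higher. Matches to any of these letters on either strand are in capitals, and a match is a description, not a site in use. For Kdm4c start 1 was counted and for Sirt3 start 2, both without a match. The matches at Kdm4c start 2 and Sirt3 start 1 are therefore not in the member shares.
Kdm7a promoter, chr6:39206724-39207023 (minus strand): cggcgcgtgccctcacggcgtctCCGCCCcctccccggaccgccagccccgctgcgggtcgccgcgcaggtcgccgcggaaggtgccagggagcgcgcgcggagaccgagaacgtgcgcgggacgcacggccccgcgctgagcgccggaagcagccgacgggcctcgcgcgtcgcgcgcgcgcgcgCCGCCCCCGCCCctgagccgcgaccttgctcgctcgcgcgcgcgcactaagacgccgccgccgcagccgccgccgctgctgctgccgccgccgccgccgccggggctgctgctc
Kdm4c promoter at start 1, chr4:74242247-74242546 (plus strand): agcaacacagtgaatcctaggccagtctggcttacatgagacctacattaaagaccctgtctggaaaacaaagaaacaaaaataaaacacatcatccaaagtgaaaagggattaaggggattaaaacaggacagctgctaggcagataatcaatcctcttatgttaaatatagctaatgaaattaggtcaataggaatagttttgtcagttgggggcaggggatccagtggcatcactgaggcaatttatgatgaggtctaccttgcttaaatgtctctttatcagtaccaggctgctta
Kdm4c promoter at start 2, chr4:74251629-74251928 (plus strand): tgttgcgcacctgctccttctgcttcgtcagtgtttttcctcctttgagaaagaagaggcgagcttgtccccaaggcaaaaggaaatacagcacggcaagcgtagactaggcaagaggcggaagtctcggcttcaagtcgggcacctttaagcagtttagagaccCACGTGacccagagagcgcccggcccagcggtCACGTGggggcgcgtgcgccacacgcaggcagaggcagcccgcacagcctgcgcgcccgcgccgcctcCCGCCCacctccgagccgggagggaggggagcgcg
Sirt3 promoter at start 1, chr7:140881820-140882119 (minus strand): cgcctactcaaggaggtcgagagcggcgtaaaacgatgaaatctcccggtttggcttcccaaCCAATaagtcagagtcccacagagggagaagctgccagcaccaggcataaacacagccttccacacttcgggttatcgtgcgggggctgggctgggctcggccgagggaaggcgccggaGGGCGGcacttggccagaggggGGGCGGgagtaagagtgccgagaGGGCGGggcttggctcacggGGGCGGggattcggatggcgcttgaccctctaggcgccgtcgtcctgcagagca
Sirt3 promoter at start 2, chr7:140882260-140882559 (minus strand): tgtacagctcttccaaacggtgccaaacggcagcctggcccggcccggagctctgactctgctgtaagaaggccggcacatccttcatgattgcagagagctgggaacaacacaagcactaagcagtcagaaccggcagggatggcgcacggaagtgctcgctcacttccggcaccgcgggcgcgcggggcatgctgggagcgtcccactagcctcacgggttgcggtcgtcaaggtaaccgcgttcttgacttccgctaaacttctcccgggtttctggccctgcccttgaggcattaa
Hdac11 promoter, chr6:91156565-91156864 (plus strand): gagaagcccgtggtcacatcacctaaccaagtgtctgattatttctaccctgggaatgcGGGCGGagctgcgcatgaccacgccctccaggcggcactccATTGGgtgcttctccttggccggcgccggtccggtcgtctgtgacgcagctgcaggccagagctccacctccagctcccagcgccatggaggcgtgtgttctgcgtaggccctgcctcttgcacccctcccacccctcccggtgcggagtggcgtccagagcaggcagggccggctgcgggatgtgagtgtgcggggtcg
Kdm7a held 65 CpG in 82.7% GC. The upstream start of Kdm4c held 0 CpG and the downstream one 28. Sirt3 held 24 and 23 at its starts and Hdac11 held 22, so CpG-rich promoters stood on both sides of the comparison.

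Among the demethylases, the H3K27 enzymes had the lowest fold changes. Kdm7a (ENSMUSG00000042599, mm10 chromosome 6, 39136623 to 39206789, minus strand), which removes methyl groups from H3K9 and H3K27, was at 9.19, 3.79, 7.81 and 5.43 CPM in infants 1 to 4, against 11.002, 11.05 and 12.6 CPM in adults 1 to 3 (log2 fold change -0.81 with SE 0.28, edgeR adjusted p = 0.315). Every infant library lay below every adult library, with infant 2 lowest. Only 40.7% of its exon reads mapped to 1 place, and with those reads alone its log2 fold change was -0.66 and infant 1, with 78 reads, was above adult 3, with 73. Kdm6b (ENSMUSG00000018476, mm10 chromosome 11, 69398508 to 69413675, minus strand), the H3K27 demethylase that LPS induces in macrophages, was at 5.73, 2.68, 3.19 and 3.67 CPM in infants 1 to 4, against 5.16, 6.67 and 6.82 CPM in adults 1 to 3 (log2 fold change -0.70 with SE 0.29, edgeR adjusted p = 0.358). Infant 1 lay within the adult range, and infants 2, 3 and 4 lay below it. Early-response and heat-shock genes, which follow stimulation and handling, had 13 of 18 tested members lower in infants at an unadjusted p under 0.05, beside 6.73% of all tested genes, with none called by edgeR and 5 by DESeq2. They had a summed level of 2283 to 3854 CPM in infants and 6968 to 7548 CPM in adults. Their part in the Kdm values was not tested.

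Among the demethylases of H3K9, Kdm4c (ENSMUSG00000028397, mm10 chromosome 4, 74242497 to 74405860, plus strand), which acts on the trimethylated form, was at 20.5, 10.7, 14.7 and 17.9 CPM in infants 1 to 4, against 25.4, 25.8 and 21.3 CPM in adults 1 to 3 (log2 fold change -0.60 with SE 0.21, edgeR adjusted p = 0.317). The groups did not overlap. Kdm3b (ENSMUSG00000038773, mm10 chromosome 18, 34777008 to 34839370, plus strand), which acts on the lower methylation states, was at 36.5, 30.4, 31.6 and 33.2 CPM in infants 1 to 4, against 41.1, 41.9 and 40.4 CPM in adults 1 to 3 (log2 fold change -0.32 with SE 0.12, edgeR adjusted p = 0.331). Exons of Gm26538, on the opposite strand, cover 24.6% of the 14095 exon bases that the GENCODE M21 annotation gives Kdm3b. Its reads were counted over 7112 bp of exon, and the share of those bases that is covered is not given. The sources used here do not give whether reads were counted by strand. The adult values of Kdm3b lay close together and above those of all infants. Its relative Kdm3a was at 29.2, 13.2, 14.8 and 16.98 CPM in infants 1 to 4, against 23.9, 20.7 and 28.7 CPM in adults 1 to 3, with infant 1 the highest of all 7 libraries (log2 fold change -0.40 with SE 0.26, edgeR adjusted p = 0.504). Kdm4a had 16.1, 5.36, 17.6 and 18.2 CPM in infants 1 to 4, against 20.2, 18.7 and 11.8 CPM in adults 1 to 3, with infant 2 the lowest library and adult 3 next. Kdm4b, the one with the highest RPKM of these enzymes, had a log2 fold change of 0.011 (SE 0.13). Kdm4d was too low to test, with 25 exon reads over the infant and 11 over the adult libraries.

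For H3K4, the erasers differed among themselves. Kdm5b (ENSMUSG00000042207, mm10 chromosome 1, 134560171 to 134635285, plus strand), a JmjC demethylase of the trimethylated form, was at 16.6, 11.1, 10.2 and 10.6 CPM in infants 1 to 4, against 19.3, 18.1 and 16.2 CPM in adults 1 to 3 (log2 fold change -0.56 with SE 0.20, edgeR adjusted p = 0.319). Infants 2, 3 and 4 lay below the adults and infant 1 within their range. The closely related Kdm5a had a log2 fold change of 0.044 (SE 0.17). Of the flavin-dependent pair, Kdm1a (LSD1) had a fold change of -0.14 (SE 0.13) on the log2 scale and Kdm1b (LSD2) one of 0.17 (SE 0.15). Among the H3K4 writers, Setd1b, a catalytic subunit of the COMPASS complex (ENSMUSG00000038384, mm10 chromosome 5, 123142193 to 123168629, plus strand), had groups that did not overlap, with 1.75, 1.89, 1.94 and 1.597 CPM in infants 1 to 4, against 1.26, 1.35 and 1.42 CPM in adults 1 to 3 (log2 fold change 0.42 with SE 0.33, edgeR adjusted p = 0.572). These values rest on 30 to 37 exon reads per infant library and 28 to 30 per adult library, of which 15.6% mapped to 1 place. The mixed-lineage-leukaemia type writers Kmt2a, Kmt2c and Kmt2d, which act on promoters and enhancers, had log2 fold changes of -0.36 (SE 0.21), -0.21 (SE 0.19) and -0.29 (SE 0.22), and Kmt2b one of 0.045 (SE 0.21). For Setd1a the log2 fold change was -0.17 (SE 0.38), with 28.4% of its reads mapping to 1 place and 52.3% of its annotated exon bases shared with other genes.

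Of the H3K36 enzymes, the writer and 2 of the 3 erasers had fold changes below 0. Setd2, which trimethylates H3K36 behind the polymerase, was at 20.9, 17.9, 16.1 and 19.9 CPM in infants 1 to 4, against 23.1, 20.8 and 21.97 CPM in adults 1 to 3 (log2 fold change -0.23 with SE 0.15, edgeR adjusted p = 0.492). Kdm2a (ENSMUSG00000054611, mm10 chromosome 19, 4314419 to 4398285, minus strand), which removes H3K36 methylation at CpG islands, was at 23.8, 16.6, 18.99 and 24.4 CPM in infants 1 to 4, against 27.8, 32.3 and 23.6 CPM in adults 1 to 3 (log2 fold change -0.41 with SE 0.18, edgeR adjusted p = 0.369). Infants 1 and 4 overlapped with adult 3. Kdm2b, a subunit of a variant Polycomb complex, was at -0.18 (SE 0.21) in log2 fold change and Kdm8, whose histone activity is disputed, at 0.23 (SE 0.39). Kmt5a, the H4K20 monomethyltransferase needed in the cell cycle, was at 65.5, 35.96, 49.3 and 49.8 CPM in infants 1 to 4, against 58.7, 66.1 and 55.4 CPM in adults 1 to 3 (log2 fold change -0.26 with SE 0.19, edgeR adjusted p = 0.529). Infant 2 was the lowest of the 7 libraries for Kmt5a and infant 1 and adult 2 the highest.

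**Figure D2:**
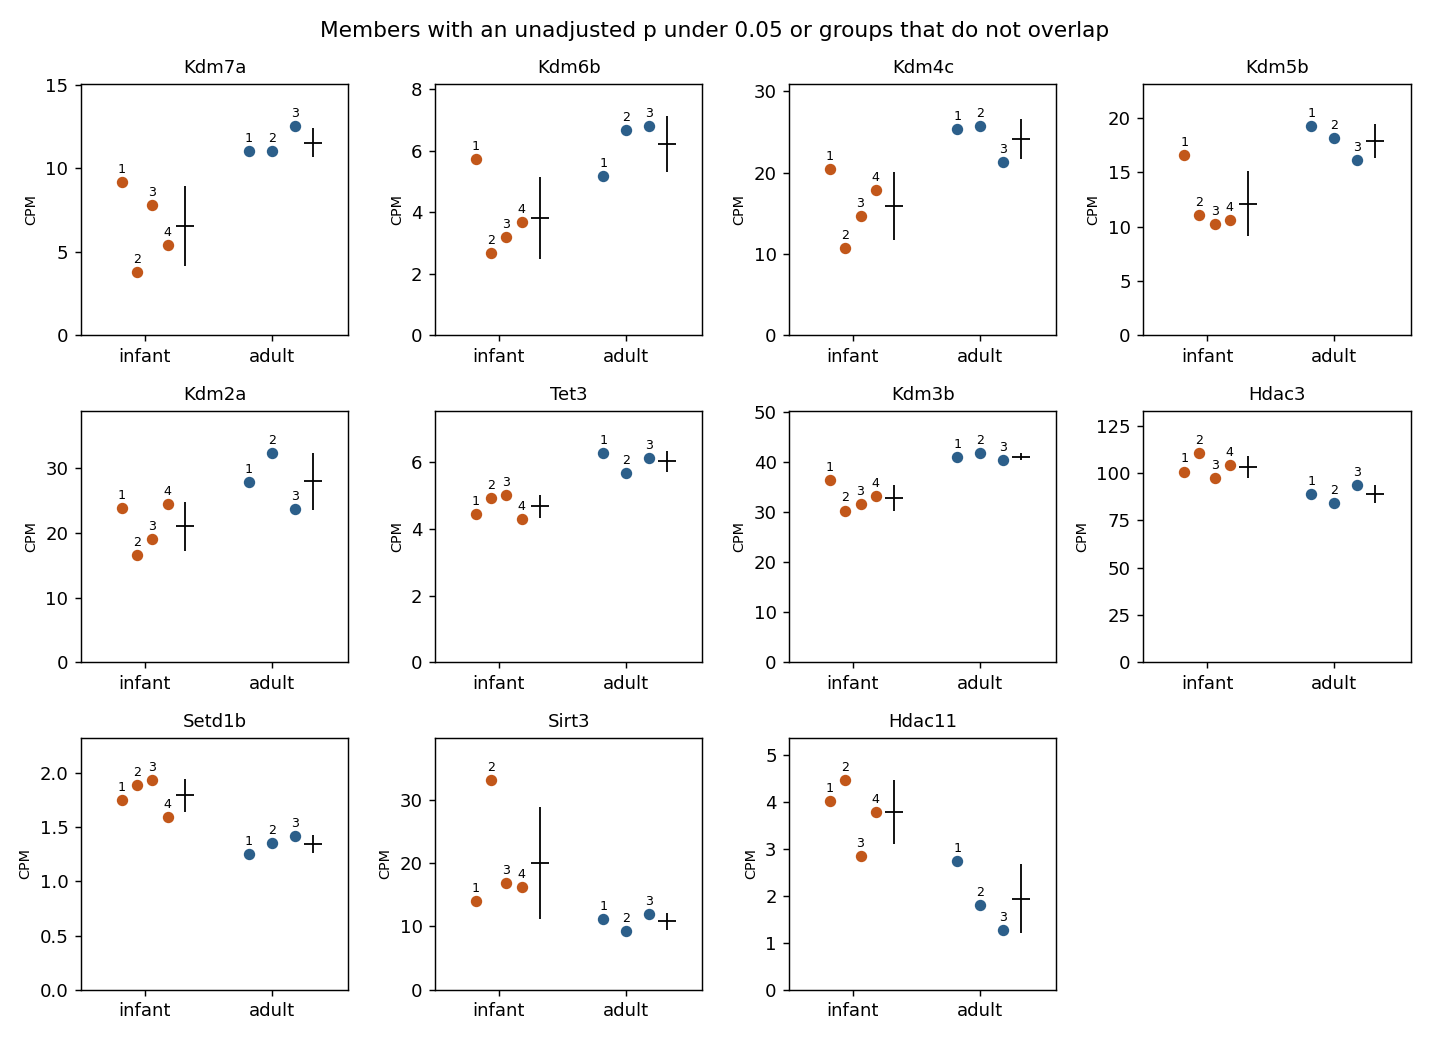
CPM in each library (points, numbered by replicate) with the group mean and SD (bars) for the 11 members with an unadjusted p under 0.05 or groups that do not overlap, infants left of adults, each axis starting at 0. Infant 1 lies nearest to the adults for Kdm7a, Kdm6b, Kdm4c, Kdm5b and Kdm3b, and infant 2 is far above the other infants for Sirt3.

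DNA methylation genes gave no difference that held against the spread. Dnmt1, the maintenance enzyme that copies methylation after replication, was at 45.3, 27.7, 42.5 and 67.6 CPM in infants 1 to 4, against 59.3, 54.2 and 31.9 CPM in adults 1 to 3 (log2 fold change -0.083 with SE 0.29, edgeR adjusted p = 0.914). The lowest and the highest library were both infants, and adult 3 lay well below the other adults. Beside it, mitotic genes had 8 of 15 tested members higher in infants at an unadjusted p under 0.05, beside 6.53% of all tested genes, with none called by edgeR and 5 by DESeq2. They had a summed level of 139 to 189 CPM in infants and 86.6 to 113 CPM in adults. Of the replication genes 4 of 18 were higher at such a p and 1 was called by DESeq2, with 938 to 1153 CPM in infants and 779 to 938 CPM in adults. Infant 4, the highest library for Dnmt1, was also the highest for the mitotic sum, at 189 CPM, while infant 2, the lowest for Dnmt1, was at 153 CPM. For the replication sum infant 2 was the highest library, at 1153 CPM, with infant 4 at 1060 CPM and adult 3 the lowest, at 779 CPM. The part of mitotic and replication genes in the Dnmt1 values was not tested. The de novo enzyme Dnmt3a averaged 61.1 ± 4.53 CPM in infants (SD, n = 4) and 66.7 ± 10.6 CPM in adults (SD, n = 3), and Dnmt3b, its low partner, 1.896 ± 0.349 CPM in infants (SD, n = 4) and 2.09 ± 0.665 CPM in adults (SD, n = 3). Dnmt3l, a cofactor without catalytic activity, had the highest fold change of the members, 0.98 (SE 0.55), on 8 to 20 exon reads per infant library and 7 to 12 per adult library, and its groups overlapped.

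Tet2, the most abundant Tet enzyme here and one that restrains inflammatory genes in myeloid cells, was at 37.7, 42.1, 37.2 and 32.4 CPM in infants 1 to 4, against 30.8, 43.7 and 30.7 CPM in adults 1 to 3 (log2 fold change 0.090 with SE 0.17, edgeR adjusted p = 0.826). Adult 2 was the highest library and the other 2 adults the lowest. Tet3 (ENSMUSG00000034832, mm10 chromosome 6, 83362373 to 83459084, minus strand) was at 4.45, 4.94, 5.02 and 4.31 CPM in infants 1 to 4, against 6.29, 5.68 and 6.13 CPM in adults 1 to 3 (log2 fold change -0.37 with SE 0.21, edgeR adjusted p = 0.443), with all infants below all adults. Tet1 was too low to test, with 36 exon reads over the infant and 21 over the adult libraries.

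The deacetylases mostly lay at or above 0. Hdac3 (ENSMUSG00000024454, mm10 chromosome 18, 37935844 to 37954988, minus strand), the catalytic subunit of the NCoR and SMRT corepressor complexes, was at 101, 111, 97.5 and 104 CPM in infants 1 to 4, against 89.1, 84.1 and 93.5 CPM in adults 1 to 3 (log2 fold change 0.22 with SE 0.11, edgeR adjusted p = 0.415). The groups did not overlap, with a gap between infant 3 and adult 3. Hdac1, the most abundant member, was at 289.7, 317, 299 and 305 CPM in infants 1 to 4, against 291, 245 and 258 CPM in adults 1 to 3 (log2 fold change 0.19 with SE 0.12, edgeR adjusted p = 0.464), and 71.4% of its exon reads mapped to 1 place. Its close relative Hdac2 had a log2 fold change of -0.023 (SE 0.11). The class IIa enzymes, which shuttle between nucleus and cytoplasm, had log2 fold changes of -0.14 (SE 0.22) for Hdac4, 0.17 (SE 0.24) for Hdac5, 0.16 (SE 0.46) for Hdac7 and -0.68 (SE 0.40) for Hdac9. Hdac11 (ENSMUSG00000034245, mm10 chromosome 6, 91156665 to 91174692, plus strand), a class IV enzyme known to remove fatty acyl groups, was at 4.03, 4.47, 2.85 and 3.78 CPM in infants 1 to 4, against 2.74, 1.804 and 1.27 CPM in adults 1 to 3 (log2 fold change 0.96 with SE 0.33, edgeR adjusted p = 0.314). Each infant library exceeded each adult library, by little between infant 3 and adult 1. Its counts were low, 50 to 85 exon reads per infant library and 26 to 61 per adult library, and 17.9% of its annotated exon bases overlap other genes.

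Of the sirtuins, 6 of 7 had a log2 fold change above 0. Sirt3 (ENSMUSG00000025486, mm10 chromosome 7, 140863666 to 140882309, minus strand), the main deacetylase of mitochondria, was at 14.02, 33.1, 16.8 and 16.2 CPM in infants 1 to 4, against 11.1, 9.29 and 11.9 CPM in adults 1 to 3 (log2 fold change 0.90 with SE 0.29, edgeR adjusted p = 0.304). All infants lay above all adults, and infant 2 was far above the other infants. Without infant 2 its log2 fold change was 0.54. Exons of Ric8a and Psmd13, on the opposite strand, cover 12.7% of the 5973 exon bases that GENCODE M21 gives Sirt3. Its reads were counted over 2575 bp of exon, and the share of those bases that is covered is not given. The sources used here also do not give whether reads were counted by strand. The log2 fold change was 0.17 (SE 0.21) for the mitochondrial Sirt4, 0.32 (SE 0.24) for the mitochondrial Sirt5 and 0.28 (SE 0.16) for Sirt2, a tubulin deacetylase of the cytoplasm. Among the nuclear sirtuins, Sirt7, which works in the nucleolus, was at 226, 379.6, 248 and 224 CPM in infants 1 to 4, against 246, 247 and 252 CPM in adults 1 to 3 (log2 fold change 0.12 with SE 0.19, edgeR adjusted p = 0.796). Here too infant 2 alone was high and the other libraries lay together. Sirt1, which deacetylates the NF-kB subunit RelA, had a fold change of -0.21 (SE 0.18) on the log2 scale and Sirt6 one of 0.058 (SE 0.21).

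The other proteins with a SET domain act mainly on substrates other than histones or have no agreed activity, apart from Setd7, which monomethylates H3K4 and is counted among the 12 writers above. The groups overlapped for all 6. Kmt2e, a reader of H3K4 methylation without methyltransferase activity, was at 167, 297, 144 and 174 CPM in infants 1 to 4, against 168, 155 and 174 CPM in adults 1 to 3 (log2 fold change 0.24 with SE 0.23, edgeR adjusted p = 0.641). Infant 2 was again the library apart. Setd3, the histidine methyltransferase of actin, was at 75.7, 53.2, 59.3 and 67.1 CPM in infants 1 to 4, against 78.3, 67.2 and 57.2 CPM in adults 1 to 3 (log2 fold change -0.082 with SE 0.16, edgeR adjusted p = 0.835), and the groups overlapped over most of their range. Setd6, which methylates RelA, had a log2 fold change of -0.070 (SE 0.15), Setd5 of -0.012 (SE 0.17), Setd7 of -0.51 (SE 0.29) and Setd4 of -0.43 (SE 0.55). Without adult 3 these last values were -0.19 for Setd7 and -0.034 for Setd4.

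Levels between genes were compared in RPKM, the authors' read counts scaled to exon length and library size. The 50 tested members spanned from 0.124 RPKM for Setd1b to 77.8 RPKM for Hdac1, as means over the 7 libraries. Hdac1 averaged 81.6 ± 1.51 RPKM in infants (SD, n = 4) and 72.8 ± 5.95 RPKM in adults (SD, n = 3), and no other member reached its range in any library. Sirt7 came second at 48.3 ± 11.2 RPKM in infants (SD, n = 4) and 45.7 ± 0.828 RPKM in adults (SD, n = 3). Sirt2, Hdac3, Kmt2e and Kdm1b followed, with means over all libraries of 25.5, 22.6, 22.4 and 20.5 RPKM, and these neighbours overlapped in their libraries. The most abundant writers with an agreed mark were Kmt5a, at 15.6, 7.7997, 11.2 and 11.6 RPKM in infants 1 to 4, against 13.6, 15.5 and 12.96 RPKM in adults 1 to 3, and Dnmt1, at 6.97, 3.87, 6.21 and 10.1 RPKM in infants 1 to 4, against 8.83, 8.19 and 4.81 RPKM in adults 1 to 3. Among demethylases the flavin enzymes Kdm1b and Kdm1a led, with Kdm1b at 23.7, 23.2, 17.2 and 21.5 RPKM in infants 1 to 4, against 20.9, 20.005 and 17.2 RPKM in adults 1 to 3. Kdm1a was at 15.2, 14.1, 13.6 and 16.3 RPKM in infants 1 to 4, against 19.04, 14.9 and 15.9 RPKM in adults 1 to 3. Kdm6b was low, at 0.799, 0.3401, 0.423 and 0.4997 RPKM in infants 1 to 4, against 0.697, 0.915 and 0.933 RPKM in adults 1 to 3. The 6 H3K4 writers of the Kmt2 and Setd1 types lay under the H3K4 erasers Kdm5a, Kdm1a and Kdm1b, since the highest of them, Kmt2c, averaged 1.33 RPKM and Kdm5a 2.42 RPKM. For DNA, Dnmt1 exceeded Dnmt3a, at 3.57 RPKM, and Tet2, at 2.89 RPKM, while Dnmt3b and Tet3 were at 0.363 and 0.411 RPKM.

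**Figure D3:**
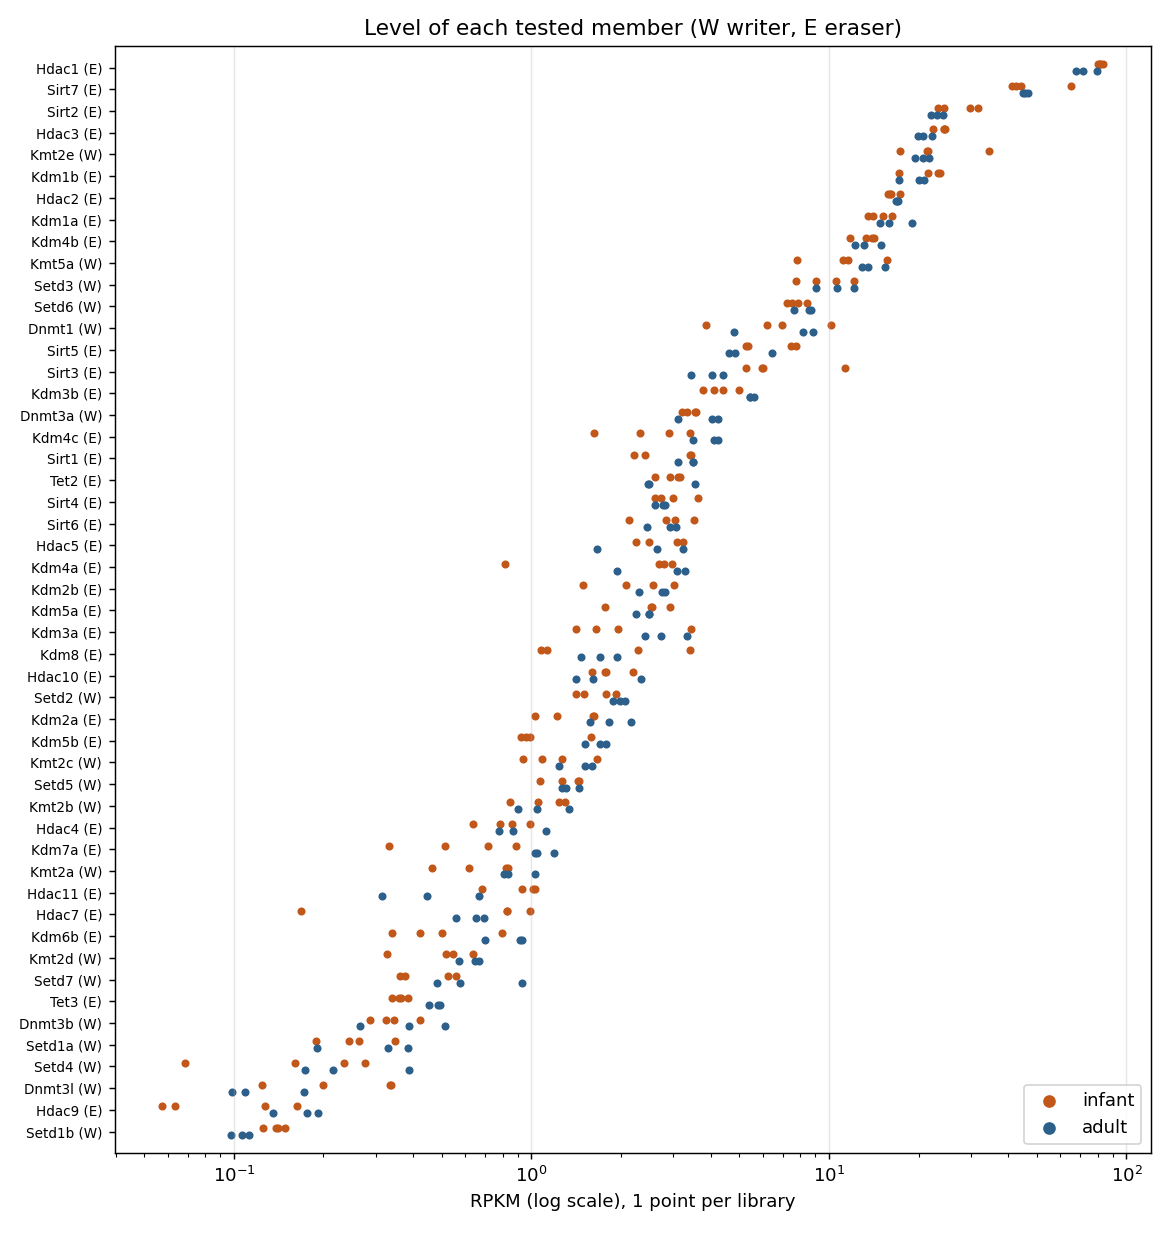
RPKM of the 50 tested members in each library on a log axis, infants in orange and adults in blue, ordered by the mean over the 7 libraries. Hdac1 and Sirt7 stand above the other members, and single infant points far from the rest include infant 2 for Kdm4a, Hdac7, Sirt3, Sirt7 and Kmt2e and infant 1 for Setd4.

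The fold changes varied with transcript length, which the choice of members did not use. Over the 50 tested members the Spearman correlation of log2 fold change with exon length was -0.52, and over all 12261 tested genes it was -0.31 (both are across genes, which share the same 7 libraries). The members are long, with a median of 6169.5 bp of exon against 3784 bp, and 26 of them were in the longest of 4 equal classes of all genes by length (at least 5835 bp). There 20 of the 26 had a log2 fold change below 0, with a median of -0.19 beside -0.13 for all genes of that class. The 8 members of the second shortest class (2364 to 3783 bp) were all above 0, with a median of 0.21 beside 0.047. Kdm genes had a median exon length of 7033 bp, Kmt genes 13133 bp and sirtuins 2785 bp, so family and length run together. Within libraries, the correlation of a member's centred level with its exon length was 0.12, -0.35, -0.47 and -0.13 in infants 1 to 4, and 0.36, 0.42 and 0.29 in adults 1 to 3. When a trend with exon length was removed from each library, a setting added after this pattern was seen, 3 Kdm genes in place of 6 had an unadjusted p under 0.05 and were lower in infants. The writers' median then was -0.021 and that of the erasers 0.062.

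**Figure D4:**
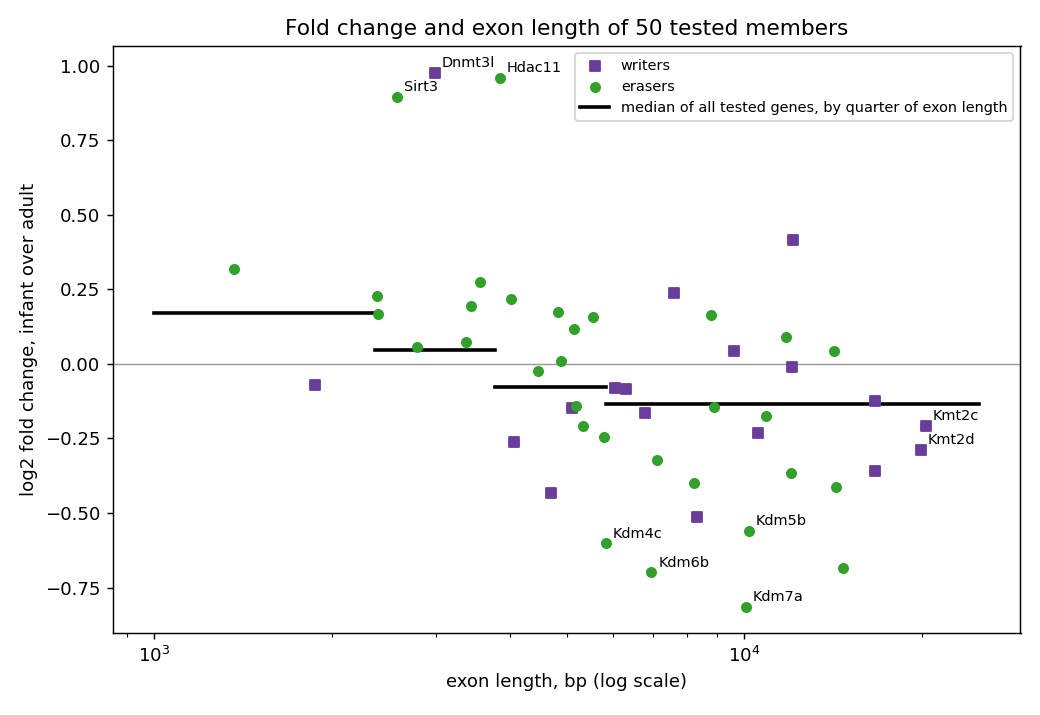
Log2 fold change (infant over adult) against exon length on a log axis for the 50 tested members, writers as squares and erasers as circles, with the median of all tested genes in each of 4 equal exon length classes as lines that stop near the plot's edges. Members and all genes alike step from above 0 at short lengths to below 0 at long ones.

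The libraries of one group did not share these values evenly. Centred on the middle between the group means, the median log2 CPM of the 14 Kdm genes was 0.13, -0.52, -0.21 and -0.041 in infants 1 to 4, and 0.21, 0.18 and -0.0052 in adults 1 to 3. Infant 2 was the lowest and infant 1 lay above adult 3. For the 16 deacetylases the medians were -0.029, 0.28, 0.022 and 0.10 in infants and -0.048, -0.024 and -0.036 in adults, with infant 2 the highest. Without infant 2, 4 Kdm genes had an unadjusted p under 0.05 and were lower in infants, without adult 1 there were 2, without adult 2 there was 1, and without infant 3 there were 3. Over all fits with 1 library left out the count ran from 1 to 7, beside 6 with all libraries. The share of all tested genes is not given for these fits. Infant 2 also had 13539 CPM of Malat1, an RNA that stays in the nucleus, beside 3108 to 3728 CPM in the other infants and 3058 to 4411 CPM in adults. Some marker lists also stood apart in infant 2, some lower and some higher. The 7 markers of CD11b+ DCs, all tested and none called, summed to 359, 161, 369 and 277 CPM in infants 1 to 4, against 347, 337 and 389.6 CPM in adults 1 to 3, and none of them was at 0. The 6 plasmacytoid DC markers summed to 200.2 CPM in infant 2, against 281 to 348 CPM in the other 6 libraries. The 10 B cell markers, of which 5 could be tested, summed to 584 CPM, against 278 to 372 CPM in the other 6. In infant 2 the 18 migratory DC markers summed to 79105 CPM, against 55004 to 68580 CPM in the other 6. Ccr7, one of the 18, did not follow this sum, since it was lower in infant 2 than in every adult library. Of these 18, 0 were higher and 2 lower in infants at an unadjusted p under 0.05, beside 6.53% and 6.73% of all tested genes. Their median log2 fold change was 0.080, and none was called by edgeR or DESeq2. The part of library quality and of other cell types in these values was not tested.

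Intron reads gave a second readout from the same libraries. The median share of intron reads among a member's exon and intron reads was 11.8, 15.6, 11.7 and 13.6 percent in infants 1 to 4, against 10.8, 14.6 and 12.2 percent in adults 1 to 3, while the median over all tested genes was 4.85 to 5.38 percent in infants and 5.37 to 6.77 percent in adults. Among 48 members with at least 20 such reads in every library, the groups did not overlap for 3, beside 8.84% of all genes measured so (2.45% higher and 6.39% lower in infants). Tet3 was the one with a higher share in infants, 61.8, 58.8, 53.2 and 58.03 percent in infants 1 to 4, against 43.3, 46.6 and 42.4 percent in adults 1 to 3. Scaled as the exon reads were, its intron reads stood at 7.198, 7.05, 5.701 and 5.96 CPM in infants 1 to 4, against 4.805, 4.96 and 4.51 CPM in adults 1 to 3, so for introns all infants were above all adults and for exons all were below. The GENCODE M21 annotation gives Tet3 16695 bp of exon, against 11999 bp counted here, so its intron reads may include annotated exon. This was not tested. The shares of Hdac3 and Hdac10, a cytoplasmic polyamine deacetylase, were lower in infants, with 6.43, 6.98, 5 and 10.1 percent in infants 1 to 4, against 10.4, 10.7 and 13.6 percent in adults 1 to 3 for Hdac10. The Hdac10 shares rest on 6 to 12 intron reads per infant library and 15 to 22 per adult library. Kdm4a, low in exon reads in infant 2, had intron shares of 16.5, 50.96, 13.2 and 13.9 percent in infants 1 to 4, against 17.2, 21.4 and 20.7 percent in adults 1 to 3. Its intron reads stood at 3.17, 5.57, 2.68 and 2.93 CPM in infants 1 to 4, against 4.18, 5.096 and 3.09 CPM in adults 1 to 3, so infant 2, lowest for exons, was highest for introns. Hdac7 had intron shares of 8.26, 44.4, 7.45 and 12.1 percent in infants 1 to 4, against 9.901, 14.3 and 7.04 percent in adults 1 to 3. In infant 2 this share rests on 16 intron and 20 exon reads, against 7 to 15 intron and 87 to 109 exon reads in the other infants.

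Enzymes and partners with other names were read from lists chosen by function. None of them passed by edgeR, and DESeq2 called Smyd2 and Ncoa3. Of other methyltransferases, 2 of 26 tested were higher and 1 lower at an unadjusted p under 0.05, with a median log2 fold change of -0.037. Over all tested genes those shares were 6.53% higher and 6.73% lower. Smyd2, a lysine methyltransferase of histone and other proteins, averaged 25.01 ± 3.397 CPM in infants (SD, n = 4) and 16.3 ± 1.12 CPM in adults (SD, n = 3), for a log2 difference of 0.62 with SE 0.16, and its DESeq2 adjusted p was 0.03397. Whsc1l1 (Nsd3) averaged 22.5 ± 3.28 CPM in infants (SD, n = 4) and 31.8 ± 5.51 CPM in adults (SD, n = 3), for a log2 difference of -0.50 with SE 0.17, and the arginine methyltransferase Prmt1 65.9 ± 16.5 CPM in infants (SD, n = 4) and 46.2 ± 9.96 CPM in adults (SD, n = 3), for a log2 difference of 0.51 with SE 0.21. Of the acetyltransferases and their coactivators, which work against the deacetylases, 1 of 16 tested were higher and 3 lower at an unadjusted p under 0.05, with a median log2 fold change of -0.25. Ncoa3, a nuclear receptor coactivator, averaged 63.9 ± 10.997 CPM in infants (SD, n = 4) and 110.1 ± 16.3 CPM in adults (SD, n = 3), for a log2 difference of -0.78 with SE 0.16 (DESeq2 adjusted p = 0.00478), Kat7 68.8 ± 11.8 CPM in infants (SD, n = 4) and 89.2 ± 5.201 CPM in adults (SD, n = 3), for a log2 difference of -0.38 with SE 0.15, and Kat5 76.3 ± 30.6 CPM in infants (SD, n = 4) and 48.9 ± 4.71 CPM in adults (SD, n = 3), for a log2 difference of 0.64 with SE 0.25. Of other erasers of methylation, 0 of 6 tested were higher and 0 lower at an unadjusted p under 0.05, with a median log2 fold change of -0.11. Of the COMPASS partners of the H3K4 writers, 0 of 11 tested were higher and 0 lower at an unadjusted p under 0.05, with a median log2 fold change of -0.14. Of the deacetylase corepressor partners, 1 of 21 tested were higher and 1 lower at an unadjusted p under 0.05, with a median log2 fold change of -0.064, where Tbl1xr1, of the NCoR complex, averaged 20.5 ± 4.28 CPM in infants (SD, n = 4) and 28.1 ± 2.52 CPM in adults (SD, n = 3), for a log2 difference of -0.45 with SE 0.19. Mbd2, which binds methylated DNA in the NuRD complex, averaged 215 ± 26.4 CPM in infants (SD, n = 4) and 172 ± 19.8 CPM in adults (SD, n = 3), for a log2 difference of 0.32 with SE 0.14. Of genes that recruit or feed the DNA methylation enzymes, 1 of 14 tested were higher and 0 lower at an unadjusted p under 0.05, with a median log2 fold change of -0.025, and the one at such a p was Idh1, which makes 2-oxoglutarate, the cosubstrate of the Tet and JmjC enzymes, with 522 ± 117 CPM in infants (SD, n = 4) and 362 ± 55.8 CPM in adults (SD, n = 3), for a log2 difference of 0.53 with SE 0.19.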

How the data were processed

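The 7 deposited tables list read counts for each gene in whole numbers, separately for exon, exon-exon and intron reads and for unique and total reads, per the file headers. RPKM as given by the authors scales total exon reads to exon length and library size, and the deposited TPM were not used. The mm10 build is named in the submitters' processing notes, with TopHat2, Cufflinks, Cuffdiff and Cuffnorm. The sources used here do not give which program and annotation made these tables, nor the use of strand. The gene identifiers of all 52 members were in GENCODE M21 at overlapping positions.

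Total exon reads (18022302 to 22316484 per library, so 3 reads are 0.134 to 0.166 CPM, counting error only) were tested with edgeR 4.0.16 in R 4.3.3, with filterByExpr, TMM, glmQLFit with robust estimation, glmQLFTest for age, Benjamini-Hochberg over 12261 genes, threshold 0.05. SEs are the log2 fold change over the square root of F. RPKM levels were not tested. Alternatives used DESeq2 1.42.0, limma 3.58.1 and other scalings, filters and libraries. On simulated counts of 12261 genes edgeR recovered 62.5% of genes changed 2-fold and 85.5% changed 4-fold, with 6.33% of its calls false, while 16.3% of DESeq2's calls were false. The simulated counts were drawn independently, with no library apart from the others and no trend with exon length. Changes under 2-fold, as all members had, were not simulated. Values in every library were given for members with an unadjusted p under 0.05 or groups that do not overlap, for the most abundant member of each family, and for others picked after their values were seen, with up to 3 genes of each other list by smallest p. The members and gene lists were chosen with earlier results of these data known.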

Additional observations from a re-analysis of the deposited data

Results flagged for a closer look

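Among the infant libraries, 1 stood far from the other 3 in 4 of the 50 tested members, where chance flags about 1 in 20 groups. Kdm5b was at 16.6 CPM in infant 1, above the 10.2 to 11.1 CPM of the other infants and within the 16.2 to 19.3 CPM of adults. Kdm4a was at 5.36 CPM in infant 2, below the 16.1 to 18.2 CPM of the other infants and below the 11.8 to 20.2 CPM of adults. Sirt3 was at 33.1 CPM in infant 2, above the 14.02 to 16.8 CPM of the other infants and above the 9.29 to 11.9 CPM of adults. Sirt7 was at 379.6 CPM in infant 2, above the 224 to 248 CPM of the other infants and above the 246 to 252 CPM of adults. Groups of 3 were not screened, so the adults were not.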

How the results depend on the processing

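No member was called under any of 20 other fits, leaving out single libraries included. Over them, 916 of 962 member fold changes kept their direction. The genes called over the whole table numbered 2, but 181 by DESeq2, 8 without the filter, 1 with the replicate block or with RPKM under either pseudocount, and 2 to 10 with 1 library left out. Members higher at an unadjusted p under 0.05 numbered 2, and 1 with the 5 CPM filter or with RPKM under either pseudocount, 3 without the length trend, and 1 to 3 with 1 library left out. Members lower numbered 6, and 5 with upper-quartile factors, without scaling factors or with unique reads. There were 4 with the replicate block or with RPKM under either pseudocount, and 3 without the length trend. In each of these fits all were Kdm. With 1 library left out they ranged from 1 to 9, Kdm genes from 1 to 7, and members without overlap from 10 to 15, beside 8 with all libraries. Smaller groups overlap less often by chance, and the share of all genes without overlap is not given for these fits. The writers' median was -0.021 without the length trend and -0.19 to -0.071 with 1 library left out, the erasers' -0.060 to 0.039. With methylation enzymes only, the erasers' median was -0.28, and with agreed nuclear mark enzymes -0.14. The cause of these changes was not tested.

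Fold changes near 0 turned sign on log2(RPKM + 0.1) Kdm5a (-0.0027), Kdm4b (-0.015), without scaling factors Kdm4b (-0.025), without the filter Kdm4b (-0.0099), with the replicate block Kdm4b (-0.0087), Hdac7 (-0.26), on log2(RPKM + 1) Kdm4b (-0.014), without the length trend Hdac2 (0.055), Hdac4 (0.024), Dnmt1 (0.041), Dnmt3a (0.048), Setd3 (0.040), Setd5 (0.16), by limma-voom Hdac7 (-0.090) and with unique reads Setd1a (0.022). Without adult 3 Setd7 was at -0.19 and Setd4 at -0.034, without infant 1 Kdm3a was at -0.71 and Setd4 at -0.14, and without infant 2 Kmt2a was at -0.23 and Sirt5 at 0.19. With 1 library left out, the sign also turned for Dnmt1 (-0.34 to 0.10), Dnmt3b (-0.36 to 0.10), Hdac10 (-0.073 to 0.31), Hdac2 (-0.053 to 0.013), Hdac4 (-0.26 to 0.013), Hdac5 (-0.063 to 0.39), Hdac7 (-0.064 to 0.48), Kdm4a (-0.45 to 0.027), Kdm4b (-0.057 to 0.10), Kdm5a (-0.029 to 0.16), Kdm8 (-0.14 to 0.42), Kmt2b (-0.069 to 0.21), Kmt2e (-0.039 to 0.36), Setd1a (-0.41 to 0.041), Setd3 (-0.19 to 0.038), Setd5 (-0.094 to 0.069), Sirt6 (-0.059 to 0.16) and Sirt7 (-0.10 to 0.19). In same-numbered libraries the deviations from the group means correlated at 0.033, -0.035 and 0.10. Adults 1 and 2 correlated best with infant 4 and adult 3 with infant 3. Such correlations cannot show whether same-numbered libraries were handled together. Under the replicate block 4 Kdm genes were lower at an unadjusted p under 0.05. The tested members with the fewest exon reads were Dnmt3l, Setd4, Setd1b, Dnmt3b, Setd1a, Hdac9 and Hdac11.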

Other observations

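Relatives on the sex chromosomes are not among the members, and the labels do not give the sex of the mice. Kdm5c, an X-linked H3K4 demethylase known to escape X inactivation in mice, was at 29.4, 19.6, 22.3 and 32.8 CPM in infants 1 to 4, against 37.8, 53.4 and 26.5 CPM in adults 1 to 3 (log2 fold change -0.59 with SE 0.25, edgeR adjusted p = 0.358). Kdm6a, the X-linked relative of Kdm6b, was at 38.6, 22.6, 27.1 and 39.4 CPM in infants and 38.03, 51.6 and 30.5 CPM in adults (log2 fold change -0.33, SE 0.24). Adult 2 was the highest library for both. Kdm5d, the Y-linked relative of Kdm5c, had 151, 71, 45 and 17 exon reads in infants 1 to 4, against 205, 0 and 310 in adults 1 to 3, so adult 2 was the one library with none. Hdac6 and Hdac8, also X-linked, had log2 fold changes of -0.0068 (SE 0.21) and 0.39 (SE 0.19). The part of sex in these values was not tested.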
